A study of Mus musculus with 13 samples.

Results

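The transcripts described are those of 10 genes for inhibitors of serine proteases: Spink5 of the Kazal family, Wfdc3, Wfdc2 and Slpi of the WAP (whey acidic protein) family, and the serpins Serpinb1a, Serpinb6b, Serpine2, Serpinh1, Serpina3n and Serpinf1. They were picked by symbol from the 32544 gene rows of the count table and were chosen for the rise of Spink5 and Wfdc3 in hyperoxia, so the differences of that pair are given as a description with no test. The other 8 were listed by family with the results of the same comparison already known. Lung RNA came from wild type male C57BL/6J mice, bought at 7 weeks of age and older than that when used. They breathed 21% oxygen (normoxia, 7 libraries) or 80% oxygen (hyperoxia, 6 libraries) for 5 days. The lungs were perfused and frozen whole, and Quant-seq read the transcripts near their 3′ ends. In whole tissue, fewer cells of a type and less RNA per cell cannot be told apart.

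Serine proteases cut other proteins with a reactive serine, and in the lung they act in blood clotting, in the release of growth factors from the matrix, in epithelial maturation and in the killing of microbes by neutrophils. Kazal and WAP inhibitors are small folds held by disulfide bonds that plug the active site of the enzyme. Serpins instead offer a loop as bait and trap the enzyme for good once it cuts. Not all members are secreted inhibitors in the strict sense. Serpinb1a and Serpinb6b belong to the clade of serpins that stay largely inside cells, Serpinh1 (HSP47) is a collagen chaperone of the endoplasmic reticulum, and Serpinf1 (PEDF) is secreted but does not inhibit proteases.

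Total counts ran from 1607111 to 3387736 per library in normoxia and from 2029006 to 4540288 in hyperoxia, so that 3 counts, taken as the detection floor, stood for 0.656 to 1.84 CPM (counts scaled to a library total of 1e+06). Values below are CPM scaled by TMM, which corrects for differences in composition between libraries. Hyperoxia replicate 1 stood apart, with a mean correlation of 0.779 with the other libraries, against 0.886 to 0.919 for each of those. It is therefore named in each group, and results that rest on it are given with and without it. Of 12496 genes tested with edgeR's quasi-likelihood test, 22.6% passed an adjusted p of 0.05, with 11.8% higher and 10.8% lower in hyperoxia, and the 2 groups of libraries did not overlap for 10.8%. All 10 members passed the filter on low counts. Library names carry letters, B to M for normoxia 1 to 5 and hyperoxia 1 to 3, and O to S for normoxia 6 and 7 and hyperoxia 4 to 6. The labels do not say what the letters mean, and differences within each range are given where they disagree. Nothing in the labels ties a library to its own mouse beyond its name, so p-values measure the spread between libraries.

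Spink5 was 14.3-fold higher in hyperoxia and Wfdc3 17.2-fold higher, and in both genes every hyperoxic library lay above every normoxic one. Among the other 8 members, edgeR's test called Serpina3n and Serpine2 higher and Wfdc2 lower (adjusted p of 0.0012, 0.0224 and 0.0448). Slpi, Serpinb1a, Serpinb6b, Serpinh1 and Serpinf1 did not pass. These 3 calls among 8 stand beside the 22.6% of all genes called, and since the members were picked with the outcome known, the count carries no weight as evidence about the family.

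**Figure D1:**
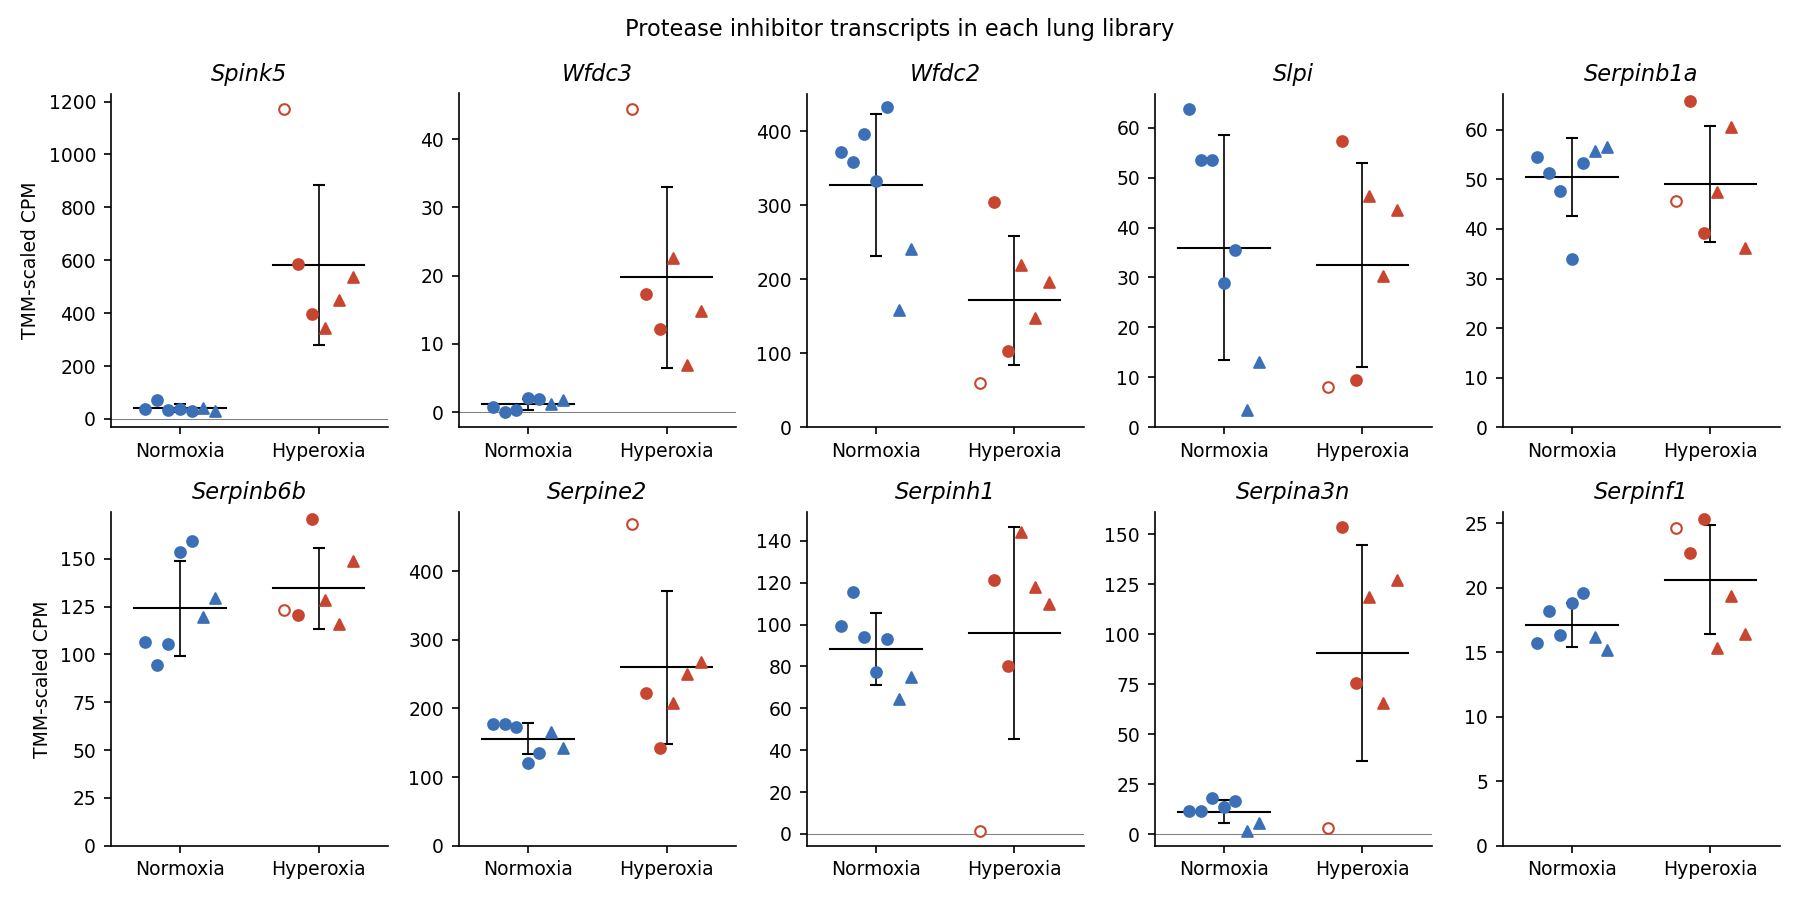
TMM-scaled CPM of each member in the 7 normoxic (blue) and 6 hyperoxic (red) libraries, with the mean and SD as black lines. The open circle is hyperoxia replicate 1 and triangles are libraries lettered O to S. The groups are fully apart in Spink5 and Wfdc3, while in Serpine2 and Serpina3n 5 of 6 hyperoxic libraries exceed every normoxic one.

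Sequences upstream of the genes were taken from RefSeq for the build GRCm38.p6 and cover the 250 bases before the annotated start. They were found for 8 of the 10 members, all but Spink5 and Serpinb1a, and are printed for the 3 of these that were higher in hyperoxia, Wfdc3 by its chosen rise and Serpina3n and Serpine2 by the test. The motifs searched on both strands were the AP-1 site TGANTCA, the STAT site TTCNNNGAA, and the p53 half-site and the NF-kB site by their usual consensus. These occur in 6.75%, 7.02%, 7.13% and 3.90% of 32851 promoter windows of the same length. Capitals mark a match. None of the searched motifs lies in the Wfdc3 window at chr2:164743268-164743517 (minus strand), which is inside the span of the longest annotated Wfdc3 transcript.
Wfdc3: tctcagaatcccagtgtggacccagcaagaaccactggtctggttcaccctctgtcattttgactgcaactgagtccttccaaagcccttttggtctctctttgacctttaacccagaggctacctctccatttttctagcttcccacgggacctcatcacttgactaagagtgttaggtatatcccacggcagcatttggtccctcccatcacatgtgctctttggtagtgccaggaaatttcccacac
The Serpina3n window at chr12:104406458-104406707 (plus strand) holds 1 p53 half-site, from -214 to -205 relative to the start.
Serpina3n: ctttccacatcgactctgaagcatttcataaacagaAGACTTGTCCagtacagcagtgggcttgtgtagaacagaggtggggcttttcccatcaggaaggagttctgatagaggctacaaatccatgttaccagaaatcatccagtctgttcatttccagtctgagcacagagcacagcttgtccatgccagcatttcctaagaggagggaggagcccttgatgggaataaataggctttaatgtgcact
The Serpine2 window at chr1:79858666-79858915 (minus strand) lies inside its gene's annotated span as well, holds none of the 4 motifs and has a GC content of 78.8%, against 49.6% in Wfdc3 and 46.4% in Serpina3n.
Serpine2: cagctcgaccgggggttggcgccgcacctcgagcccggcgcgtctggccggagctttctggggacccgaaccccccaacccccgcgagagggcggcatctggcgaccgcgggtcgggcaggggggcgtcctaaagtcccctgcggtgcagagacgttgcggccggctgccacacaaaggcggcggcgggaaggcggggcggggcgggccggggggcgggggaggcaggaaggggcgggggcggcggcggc
A match describes letters only. The 3 printed windows thus share none of the 4 motifs.

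Spink5 encodes LEKTI, a chain of Kazal-type domains that restrains kallikrein-related peptidases in the outer skin and whose loss causes Netherton syndrome. The gene spans chr18:43963235-44022501 on the plus strand in the GENCODE annotation of GRCm38. Its level ran from 31.5 to 72.0 CPM in normoxia with a median of 36.3, and from 344 to 1173 CPM in hyperoxia with a median of 495. The means were 40.5 ± 14.2 CPM (SD, n = 7) and 581 ± 303 CPM (SD, n = 6). The log2 fold change was 3.84 with a standard error of 0.30. Hyperoxia 1 was the highest library at 1173 CPM, and without it the mean was 463 ± 99.7 CPM and the log2 fold change 3.53. The gap was present in each range of letters: mean log2 CPM (hyperoxia minus normoxia, here and below) differed by 3.98 within libraries B to M and by 3.60 within O to S.

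Little else of the Spink family was read in these lungs. The nearest neighbours of Spink5, Spink14, Spink6 and Spink12, at 5.37, 48.9 and 81.9 kb, had 0 counts in all 13 libraries. The other tested Spink gene, Spink10, totalled 250 counts in normoxia and 223 in hyperoxia, with a log2 fold change of -0.04 (SE 0.29, adjusted p = 0.943 by edgeR). Markers of squamous and basal epithelium, where Spink5 is best known, were close to the floor throughout. None of 13 such markers had enough counts to be tested, and Krt6a, Krt13 and Dsg1a had no count. Their summed level was 3.49 to 11.0 CPM in normoxia and 5.90 to 11.0 CPM in hyperoxia.

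The enzymes that LEKTI is known to hold back were scarcely measured. Of 11 kallikrein-related genes on the list of epithelial proteases, 3 (Klk5, Klk6 and Klk12) had no count and 7 had too few counts to be tested. Klk7 totalled 8 counts over the normoxic libraries and 9 over the hyperoxic ones, and Klk14 totalled 62 and 36. Klk13, the single member tested, fell by 1.65 on the log2 scale (SE 0.48, adjusted p = 0.0215 by edgeR) from a mean of 5.51 ± 1.13 CPM (SD, n = 7) to 1.93 ± 1.95 CPM (SD, n = 6). Leaving out 1 library at a time kept that call in 9 of 13 fits.

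Wfdc3 is a WAP gene about which little is established. It lies at chr2:164731180-164745931 on the minus strand. It was close to the floor in normoxia, at 0 to 2.02 CPM with a median of 1.11 CPM, or 0 to 6 counts per library and 22 counts in all 7. In hyperoxia it ran from 6.88 to 44.5 CPM with a median of 16.1 CPM, or 22 to 84 counts per library and 338 in all 6. The means were 1.12 ± 0.79 CPM (SD, n = 7) and 19.7 ± 13.2 CPM (SD, n = 6), and the log2 fold change was 4.10 (SE 0.52). That value ran from 3.12 to 4.24 over the other ways of fitting. Hyperoxia 1 was again the highest, and without it the log2 fold change was 3.72. Within libraries B to M mean log2 CPM differed by 3.92 and within O to S by 2.74. The prior count of 2 in log2 CPM narrows such differences where counts are near the floor. Mean CPM in normoxia and hyperoxia was 0.99 and 24.7 within B to M, and 1.45 and 14.8 within O to S.

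Wfdc3 sits at the end of the WAP locus, which holds 19 WAP and Kunitz inhibitor genes in 570 kb between chr2:164176327 and 164745931. Of these genes, 8 had no count in any library and 3 had enough counts to be tested, namely Slpi, Wfdc2 and Wfdc3. The 3 differed in their response, with log2 fold changes of -0.13, -0.93 and 4.10. Dnttip1, which lies 0.052 kb from Wfdc3 and is no inhibitor, had a log2 fold change of -0.02 (SE 0.16, adjusted p = 0.951 by edgeR). Spint5 and Spint4, the next inhibitor genes inside the locus, totalled 1 and 0 counts.

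Wfdc2 (HE4) is secreted by airway and other glandular epithelia, and lies at chr2:164562413-164568510. Its level ran from 159 to 433 CPM in normoxia (median 359) and from 59.5 to 304 CPM in hyperoxia (median 172). The means were 327 ± 95.6 CPM (SD, n = 7) and 172 ± 87.4 CPM (SD, n = 6), a 1.90-fold lower level in hyperoxia (log2 fold change -0.93, SE 0.32, adjusted p = 0.0448 by edgeR). The 5 normoxic libraries lettered B to M all lay above every hyperoxic one, whereas normoxia 6 and 7, at 159 and 240 CPM, lay among the hyperoxic libraries. Mean log2 CPM differed by -1.61 within B to M, or -1.08 without hyperoxia 1, and -0.08 within O to S. The call was lost with the letter range as a term (adjusted p = 0.109) and in 8 of 13 fits that each left out 1 library, where adjusted p reached 0.0886.

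Slpi (secretory leukocyte protease inhibitor) blocks neutrophil elastase on airway surfaces and lies at chr2:164354070-164389095. Apart from Wfdc3, which had 1 library at 0, it had the widest range in normoxia, from 3.34 to 63.8 CPM (median 35.5), or 19.1-fold. In hyperoxia it ran from 8.04 to 57.4 CPM (median 36.9). The groups overlapped almost fully, with means of 36.0 ± 22.5 CPM (SD, n = 7) and 32.5 ± 20.4 CPM (SD, n = 6) and a log2 fold change of -0.13 (SE 0.54, adjusted p = 0.897 by edgeR). The standard error leaves room for a change of either sign. Within libraries B to M mean log2 CPM differed by -1.42, or -0.92 without hyperoxia 1, whereas within O to S by 2.43. A test of that difference between ranges gave an unadjusted p of 0.0052 and an adjusted p of 0.538 in edgeR, and in it 0 of 12496 genes passed an adjusted p of 0.05 and 1158 an unadjusted p of 0.05.

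Both proteins are made by club cells, the secretory cells of small airways. The summed level of 7 club cell markers, led by Scgb1a1, ran from 35980 to 53216 CPM in normoxia 1 to 5 but was 14625 CPM in normoxia 6 and 23701 CPM in normoxia 7. It was 3349 to 10235 CPM in hyperoxia 2 to 6 and 209 CPM in hyperoxia 1. Of the 7 markers, 4 passed the test and all of these were lower in hyperoxia, beside 10.8% of all genes. Alveolar type 2 cell markers were also lower, with a summed level of 12382 to 23028 CPM in normoxia and 3181 to 6846 CPM in hyperoxia. Normoxia 6 and 7 were the lowest normoxic libraries for the summed club cell markers, for Wfdc2 and for Slpi. Between the groups Slpi overlapped and the summed club cell markers did not. Within O to S Slpi was higher in hyperoxia and the summed club cell markers were lower. Slpi held 12 and 44 counts in normoxia 6 and 7. The part of these cell types in the values of Wfdc2 and Slpi was not tested.

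**Figure D2:**
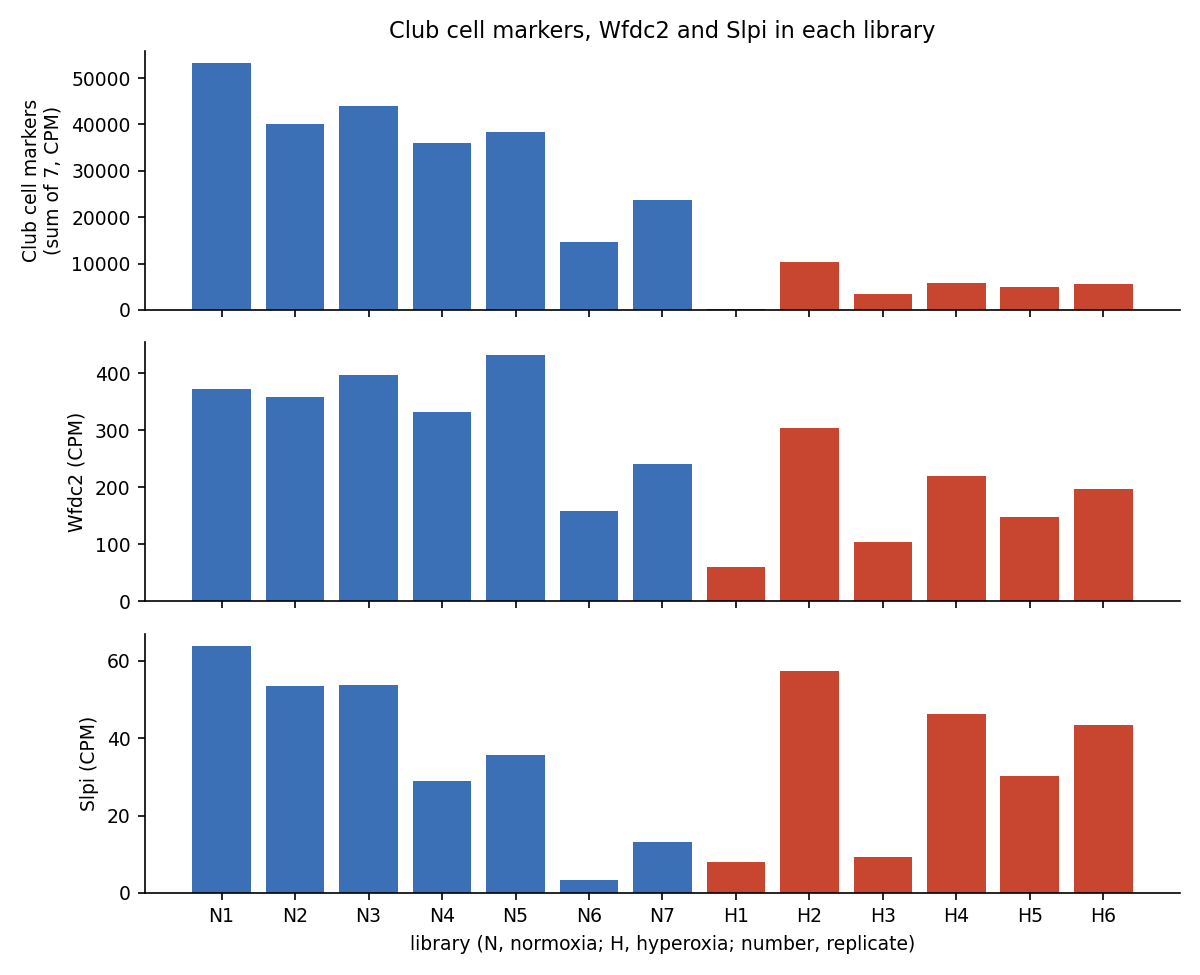
Summed CPM of 7 club cell markers (top), Wfdc2 (middle) and Slpi (bottom) in each library, normoxia in blue and hyperoxia in red. Normoxia 6 and 7 are the lowest normoxic libraries in all 3 panels, while Slpi is at 57.4 CPM in hyperoxia 2 and 46.3 CPM in hyperoxia 4, where the club cell markers are at 10235 and 5796 CPM.

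Serpina3n, a mouse relative of human alpha-1-antichymotrypsin and an acute phase protein, showed the largest log2 fold change of the 8 members tested. It lies at chr12:104406729-104414329. In normoxia it ran from 1.95 to 18.0 CPM (median 11.6) and in hyperoxia from 3.22 to 153 CPM (median 97.1). Hyperoxia 2 to 6 stood at 153, 75.4, 119, 65.6 and 127 CPM, all above every normoxic library, but hyperoxia 1 was at 3.22 CPM with 6 counts. The means were 11.2 ± 5.72 CPM (SD, n = 7) and 90.6 ± 54.0 CPM (SD, n = 6), an 8.23-fold higher level (log2 fold change 3.04, SE 0.57, adjusted p = 0.0012 by edgeR). Without hyperoxia 1 it was 9.95-fold higher. With a replicate block edgeR gave an adjusted p of 0.0607. Within B to M mean log2 CPM differed by 1.28, or 2.88 without hyperoxia 1, and within O to S by 4.63, where the normoxic mean was 3.80 CPM against 14.2 CPM in B to M.

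Several near copies of Serpina3n lie beside it, and reads near their ends can be shared. Serpina3m, 12.5 kb away, totalled 21 counts in normoxia and 169 in hyperoxia, and Serpina3i 7 and 52, but neither had enough counts to be tested. Serpina3c and Serpina3f were tested with log2 fold changes of 0.34 each (adjusted p of 0.446 and 0.523 by edgeR). Other acute phase and interleukin-6 response genes were mixed. Of 11 tested, 5 were called higher and 1 lower, beside 11.8% and 10.8% of all genes, and their median was 0.71 on the log2 scale against -0.03 for all genes. Those higher were Timp1, an inhibitor of metalloproteinases (log2 fold change 3.73), Saa3 (1.95), Lcn2 (1.59), Cebpd (1.46) and Stat3 (0.71). Haptoglobin (Hp) was lower, at -1.16. Hyperoxia 1 was low for Saa3 too, at 3.22 CPM against a highest level of 29.9 CPM in the group.

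Serpine2 (protease nexin-1) inhibits thrombin, plasmin and urokinase at the cell surface and lies at chr1:79794197-79861180. It ran from 121 to 177 CPM in normoxia (median 166) and from 142 to 469 CPM in hyperoxia (median 236). All hyperoxic libraries except hyperoxia 3, at 142 CPM, lay above every normoxic one. The means were 156 ± 22.8 CPM (SD, n = 7) and 260 ± 111 CPM (SD, n = 6), a 1.66-fold higher level (log2 fold change 0.73, SE 0.22, adjusted p = 0.0224 by edgeR). Hyperoxia 1 was the highest at 469 CPM, and without it the level was 1.41-fold higher (adjusted p = 0.0204). The call was lost in limma on log2 CPM plus 1 (adjusted p = 0.0844) and in edgeR with a replicate block (adjusted p = 0.0973). Within B to M mean log2 CPM differed by 0.67, or 0.20 without hyperoxia 1, and within O to S by 0.64.

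Serpinh1 binds newly made collagen in the endoplasmic reticulum, and lies at chr7:99345376-99353239. In normoxia it ran from 64.7 to 116 CPM (median 93.1). In hyperoxia 2 to 6 it ran from 80.3 to 144 CPM, while hyperoxia 1 held 3 counts, or 1.61 CPM. With all libraries the means were 88.5 ± 17.2 CPM (SD, n = 7) and 95.9 ± 50.6 CPM (SD, n = 6) and the log2 fold change was 0.12 (SE 0.46, adjusted p = 0.880 by edgeR). Without hyperoxia 1 it was 0.39 (SE 0.16, adjusted p = 0.0756). The direction depended on the method, with -0.60 by limma on log2 CPM and -0.43 by limma-voom. Within B to M mean log2 CPM differed by -1.76, or 0.05 without hyperoxia 1, and within O to S by 0.82.

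Of 18 collagen genes and enzymes of collagen folding and crosslinking, all tested, 6 were called higher and 1 lower, beside 11.8% and 10.8% of all genes. Col4a1, a chain of basement membrane collagen, averaged 779 ± 113 CPM over the normoxic libraries (SD, n = 7) and 3734 ± 564 CPM over the hyperoxic ones (SD, n = 6). Hyperoxia 1, with so little Serpinh1, was within the range of its group for Col4a1, at 3593 CPM, but was the lowest hyperoxic library for Col4a2, at 153 CPM against 315 to 785 CPM in the others, for Col5a2, at 135 CPM against 196 to 247 CPM, and for Lox, at 65.4 CPM against 103 to 241 CPM. It was the highest hyperoxic library for Col5a1, at 96.5 CPM against 50.4 to 65.3 CPM, and for P4ha1, at 51.5 CPM against 27.6 to 46.9 CPM. Lox, which crosslinks collagen, had a log2 fold change of 2.33, and Col5a2 one of 1.26. The proline hydroxylase gene P4ha1 was lower, at -0.62.

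Serpinf1 lies at chr11:75409769-75422701 and encodes PEDF, which restrains vessel growth. It had the narrowest normoxic range of all members, from 15.2 to 19.6 CPM (median 16.4), and ran from 15.3 to 25.4 CPM in hyperoxia (median 21.0). The 3 hyperoxic libraries lettered B to M lay above every normoxic library and the 3 lettered O to S did not. The log2 fold change was 0.26 (SE 0.17, adjusted p = 0.305 by edgeR), and mean log2 CPM differed by 0.44 within B to M and 0.11 within O to S.

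Serpinb1a, an inhibitor of neutrophil elastase and cathepsin G inside leukocytes and epithelium, lies at chr13:32842092-32851185. It ran from 34.0 to 56.5 CPM in normoxia and from 36.1 to 65.8 CPM in hyperoxia, with medians of 53.3 and 46.5 CPM. Its log2 fold change was -0.04 (SE 0.17, adjusted p = 0.899 by edgeR). Serpinb6b, at chr13:32965209-32979067, is one of several mouse copies of the human gene SERPINB6. It ran from 94.3 to 159 CPM in normoxia and from 116 to 171 CPM in hyperoxia, with medians of 119 and 126 CPM. Its log2 fold change was 0.12 (SE 0.15, adjusted p = 0.623 by edgeR). Together with Serpinf1 these were the most even members over the hyperoxic libraries, with ranges of 1.82-fold and 1.47-fold. Serpinb6a, the only other Serpinb6 copy with enough counts to be tested, totalled 1686 counts in normoxia and 2159 in hyperoxia. Its log2 fold change was 0.34 (adjusted p = 0.384 by edgeR).

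**Figure D3:**
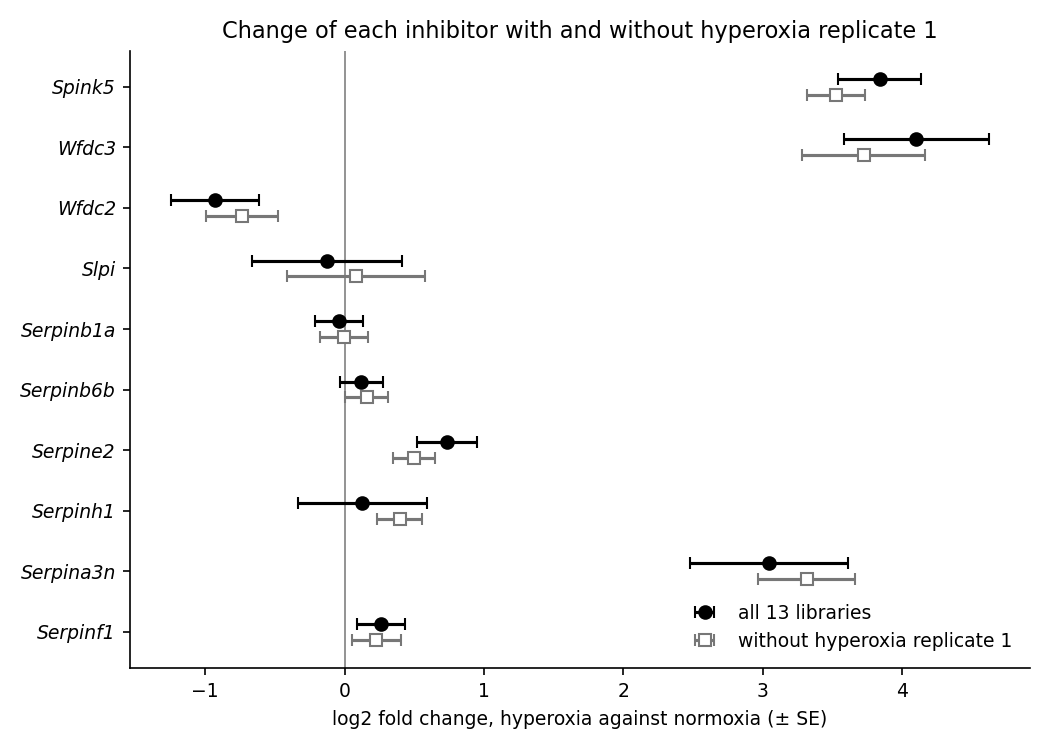
log2 fold change of each member in hyperoxia against normoxia with its standard error, from all 13 libraries (filled) and without hyperoxia replicate 1 (open). Spink5, Wfdc3 and Serpina3n lie at 3.84, 4.10 and 3.04 and stay above 3 without that library, while Serpinh1 moves from 0.12 to 0.39.

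**Figure D4:**
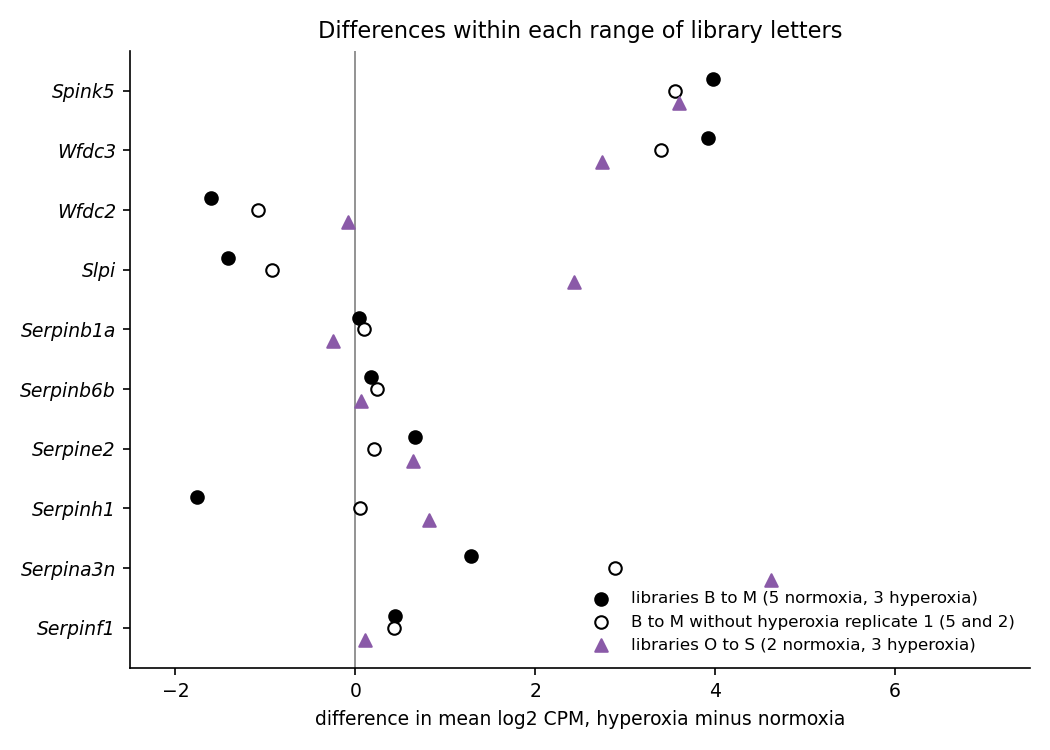
Difference in mean log2 CPM between hyperoxic and normoxic libraries within each range of library letters, with libraries B to M shown with and without hyperoxia replicate 1. Slpi lies at -1.42 and 2.43 in the 2 ranges, Serpina3n at 1.28 and 4.63, and Spink5 at 3.98 and 3.60.

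The remaining inhibitors of the same families, taken by symbol, mostly had few reads. Of 38 other Kazal, WAP and Kunitz genes, 17 had no count and 8 were tested. Wfdc17, which is expressed by macrophages, was higher in hyperoxia by edgeR (log2 fold change 1.60, SE 0.54, adjusted p = 0.0429). The call held in 4 of 13 fits that left out 1 library and in 3 of 8 other fits. Mean log2 CPM differed by 0.02 within B to M, or 1.57 without hyperoxia 1, and by 2.28 within O to S. Wfdc17 stood at 0.54 CPM in hyperoxia 1. The summed level of 5 alveolar macrophage markers was also lowest there, at 56.8 CPM against 299 to 558 CPM in hyperoxia 2 to 6. The summed level of monocyte and recruited macrophage markers was instead among the highest there, at 263 CPM against 177 to 266 CPM in hyperoxia 2 to 6. Wfdc1 fell by 1.51 (SE 0.24, adjusted p = 0.000318), from 12.5 to 19.6 CPM in normoxia to 3.47 to 9.38 CPM in hyperoxia. Reck, a membrane-anchored inhibitor of metalloproteinases with Kazal-like domains, fell by 1.46 (SE 0.45, adjusted p = 0.0278) and stood at 0.54 CPM in hyperoxia 1. Its call held in 8 of 13 fits that left out 1 library. The median log2 fold change of the 8 was -0.12.

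Of 62 other serpins, 22 had no count and 11 were tested, and the log2 fold changes of those 11 had a median of 0.08. Serpinb10, a serpin of blood-forming cells, fell 7.24-fold, from 4.91 to 17.0 CPM in normoxia to 0.69 to 2.81 CPM in hyperoxia (adjusted p = 6.39e-05 by edgeR). Over both lists of inhibitors, 5 of these 19 tested genes were called, 2 higher and 3 lower, beside the 22.6% of all genes. The count was 8 without hyperoxia 1, 10 with DESeq2 and 1 where at least 10 counts were required in every library.

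Among serine proteases, those of clotting and fibrinolysis were best measured. Of 7 listed, 4 were tested, and Plat, the tissue plasminogen activator, rose 5.78-fold (log2 fold change 2.53, SE 0.43, adjusted p = 0.000546 by edgeR). Plat ran from 8.62 to 19.0 CPM in normoxia. It ran from 48.8 to 118 CPM in hyperoxia 2 to 6 but was 7.51 CPM in hyperoxia 1. Plau, the gene of urokinase, which Serpine2 inhibits, had a log2 fold change of -0.88 (SE 0.68, adjusted p = 0.389), and values from -1.50 to -0.60 as each library was left out, the latter without hyperoxia 1, which stood at 2.14 CPM. Over the other ways of fitting it reached -2.21, and it passed in none of these fits. Plg and F2, the precursors of plasmin and thrombin made in liver, totalled 2 and 4 counts in normoxia and 1 and 3 in hyperoxia.

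Among proteases of leukocyte granules, the classical targets of Slpi and Serpinb1a had almost no reads. Elane and Tpsab1 had no count, Ctsg had 0 counts in normoxia and 1 in hyperoxia, and Prtn3 had 14 and 6. The neutrophil makes these enzymes in the bone marrow, so their transcripts do not measure the enzymes in lung. The summed level of 9 neutrophil markers was 105 to 202 CPM in normoxia and 45.0 to 260 CPM in hyperoxia. Of 13 granule proteases 2 were tested. Gzma, of cytotoxic lymphocytes, fell by 2.26 on the log2 scale (adjusted p = 0.0061 by edgeR), and the summed level of 4 lymphocyte markers was 93.0 to 152 CPM in normoxia and 29.9 to 85.2 CPM in hyperoxia. The row for Prss57 rose 3.77-fold (adjusted p = 2.19e-06), but Prss57 overlaps Fstl3 on the opposite strand, and Fstl3 rose 4.02-fold (adjusted p = 0.00265). Whether strand was used in the counting is not stated, and whether reads of this pair can be told apart was not checked.

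Of 23 epithelial and matrix serine proteases 9 were tested. Prss23 rose 2.25-fold (SE 0.21 on the log2 scale, adjusted p = 0.000895 by edgeR), from 58.2 to 94.9 CPM in normoxia to 106 to 315 CPM in hyperoxia, and Klk13 fell as given above. The membrane-anchored proteases St14 and Prss8 had log2 fold changes of 0.41 (SE 0.42) and -0.41 (SE 0.28) and did not pass. Over the 3 protease lists, 5 of 15 tested genes were called, 3 higher and 2 lower, beside the 22.6% of all genes.

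**Figure D5:**
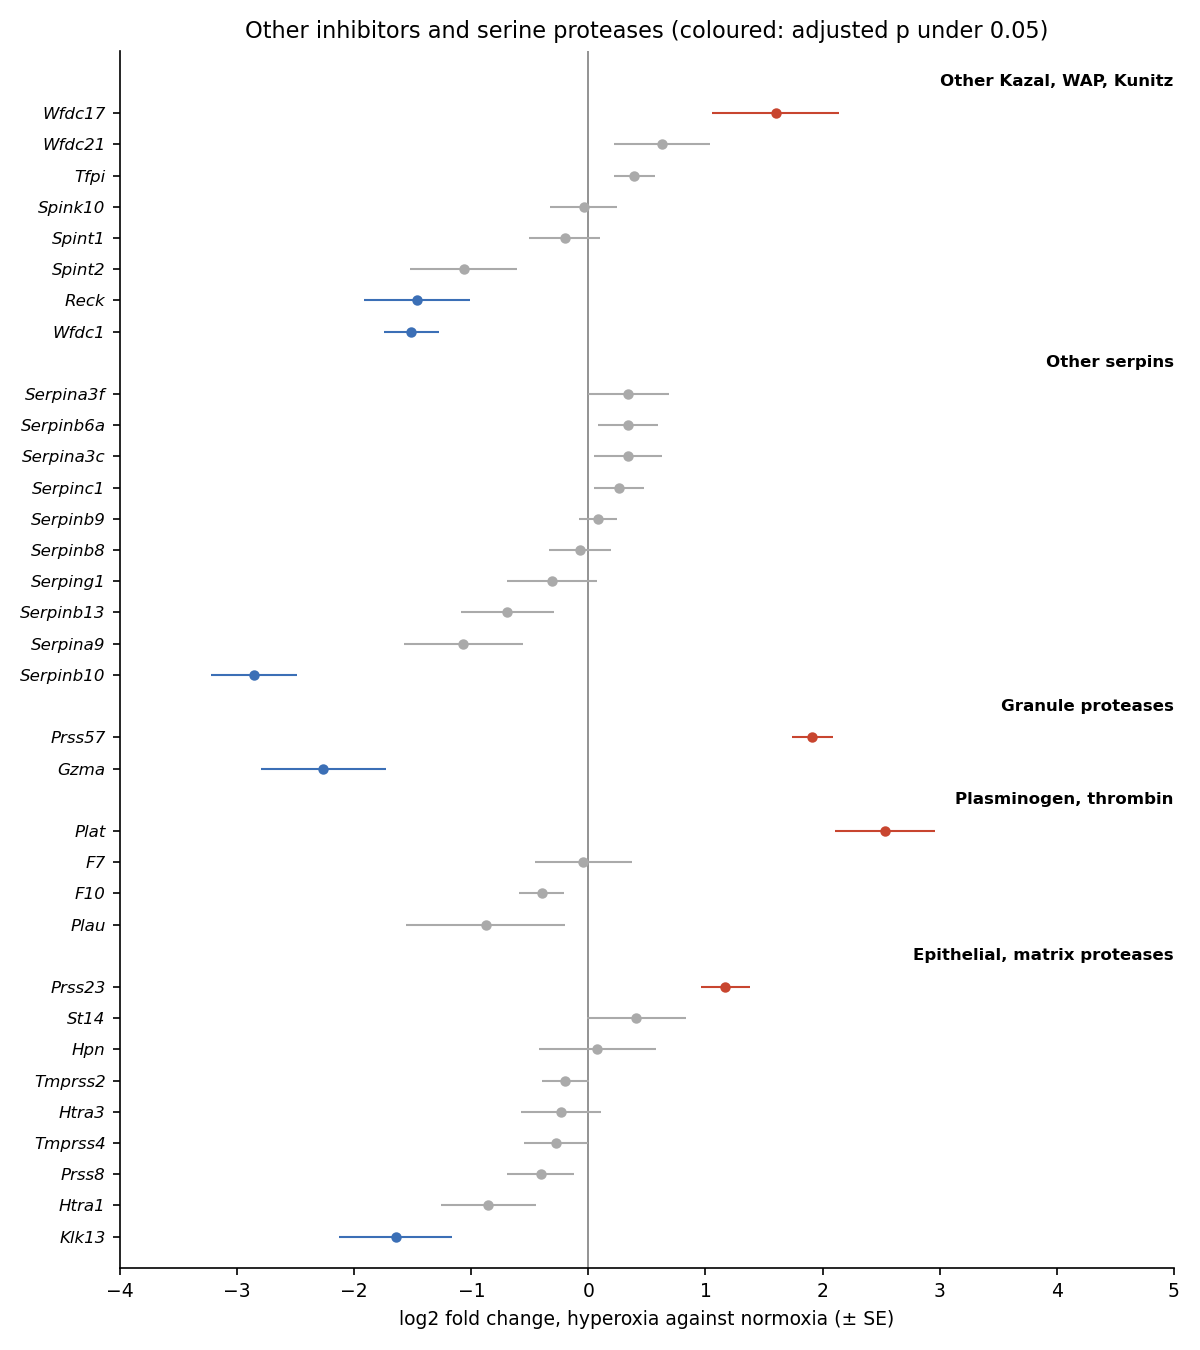
log2 fold change with standard error of tested genes of the other inhibitors and of the serine proteases, by list. Genes past an adjusted p of 0.05 are red where higher and blue where lower in hyperoxia, and the others are grey. Plat lies at 2.53 and Serpinb10 at -2.86.

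The genes whose pattern over the 13 libraries was most like that of Spink5, by the root mean square difference of log2 CPM centred on each gene's mean, were Procr (0.46), Mthfd2 (0.53), Vcan (0.54), Eln (0.59) and Tenm4 (0.62). Procr, the endothelial protein C receptor, ran from 1.78 to 7.52 CPM in normoxia and from 52.8 to 115 CPM in hyperoxia. Eln, which encodes elastin, ran from 97.1 to 285 CPM and from 699 to 1593 CPM. For Wfdc3 the nearest were Aen (0.66), Vcan (0.73), Psat1 (0.75), Mthfd2 (0.79) and Angptl4 (0.80). Aen, a nuclease gene, ran from 21.6 to 44.1 CPM in normoxia and from 178 to 477 CPM in hyperoxia. These likenesses are descriptions, since all of these genes differ between the groups and share libraries and depth.

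The levels of other cell type markers are given for the same libraries. Transitional alveolar epithelium, a state on the way from type 2 to type 1 cells, had a summed marker level of 326 to 572 CPM in normoxia and 1172 to 2016 CPM in hyperoxia, and 3 of its 5 tested markers were called higher. For these counts, 11.8% of all genes were called higher and 10.8% lower. Alveolar type 1 cell markers summed to 2597 to 3001 CPM and 3620 to 4678 CPM, but of 7 tested only Akap5 was called higher and Rtkn2 lower, and their median log2 fold change was 0.06. Fibroblast markers summed to 1297 to 2083 CPM and 1038 to 1417 CPM, with 1 of 5 tested called higher and 2 lower. Endothelial markers overlapped, at 2763 to 4885 CPM and 1224 to 4799 CPM, with 1 of 5 called lower. Ciliated cell markers summed to 213 to 496 CPM and 127 to 209 CPM, with 3 of 6 called lower. Monocyte and recruited macrophage markers summed to 131 to 155 CPM and 177 to 266 CPM, with 2 of 5 called higher and 2 lower. Mesothelial markers overlapped, at 108 to 208 CPM and 60.5 to 128 CPM, with 2 of 4 called lower. The part of these cell types in the inhibitor values was not tested.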

How the data were processed

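Mouse lung RNA was read by Quant-seq in 7 normoxic and 6 hyperoxic libraries. The authors pseudoaligned the reads with kallisto and deposited whole-number counts per gene symbol with no filter on low counts. The labels name the build mm10, and the annotation behind the symbols is not given in the sources used here. The authors also deposited log10 values of CPM plus 1, which hold the same counts divided by the library total and were used only to check the units. Every column was matched to a sample by its library name, and groups were taken from the labels. All symbols were counted, and no row lacked a name.

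Counts were tested in R 4.3.3 with edgeR 4.0.16 (glmQLFit, glmQLFTest) after TMM scaling and filterByExpr, which left 12496 of 32544 genes, of which 12826 had no count. The p-values were adjusted by Benjamini and Hochberg over all genes tested, with a threshold of 0.05. Each standard error was the size of the log2 fold change over the square root of F, and log2 CPM used a prior count of 2. Spink5 and Wfdc3 were given no p, since their rise chose the members. The members and all gene lists were chosen with earlier results of these data known. Named genes are the members, the 5 genes nearest in pattern to Spink5 and to Wfdc3, and up to 6 called genes with the smallest adjusted p from each list of inhibitors, proteases, collagens and acute phase genes. Other genes named in the text (Spink10, kallikreins, untested proteases, Fstl3 and neighbours) were named after their values were seen, and near paralogs were named for shared reads.

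The 13 libraries held 1607111 to 4540288 counts each. Floors cover counting error only, since the deposited tables carry no molecular identifiers. All 36 pairs of libraries within a group differed by more than sampling noise (lowest chi-square per gene 3.79). The alternatives were DESeq2 1.42.0, limma-voom and limma on log2 CPM plus 1 (limma 3.58.1), library size alone, RLE factors, no filter, a minimum of 10 counts per library, a block for the replicate number, a term for the letter range, differences within each letter range, and each library left out in turn. A test of whether the effect differs between letter ranges, and the B to M range without hyperoxia 1, were chosen after seeing the data. The fits were tested on simulated data. Coordinates are from the GENCODE annotation of GRCm38, matched by symbol. Protein sequences were not used here, and 1 gene of the lists is counted but not reported here.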

Additional observations from a re-analysis of the deposited data

Results flagged for a closer look

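In 25 measures (the members' levels, summed levels of marker lists and total counts) over 50 groups of 6 or 7 libraries, 6 values lay far from the rest of their group by Dixon's test at the 95% level, where chance flags about 1 in 20 groups, or 2.5 here. Of these 6, 2 belonged to hyperoxia 1.

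For Spink5, normoxia 2 was the highest normoxic library at 72.0 CPM, with the next at 40.1 CPM, and hyperoxia 1 was the highest hyperoxic library at 1173 CPM, with the next at 587 CPM. For Serpinb1a, normoxia 4 was the lowest at 34.0 CPM, with the next at 47.8 CPM. Normoxia 5 had the lowest total count of its group, 1607111, against 2696280 in the next. The summed level of monocyte and recruited macrophage markers was lowest in normoxia 4, at 131 CPM, with the next at 145 CPM. The summed level of lymphocyte markers was highest among hyperoxic libraries in hyperoxia 1, at 85.2 CPM, with the next at 45.6 CPM.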

How the results depend on the processing

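Spink5, Wfdc3, Serpina3n, Serpine2 and Wfdc2 kept their direction in every alternative run. Over the other ways of fitting, Slpi ran from -0.27 to 0.23 and Serpinh1 from -0.60 to 0.15 on the log2 scale, and as each library was left out from -0.34 to 0.08 and from -0.02 to 0.39, and neither passed the threshold in any fit. Spink5 ranged from 3.66 to 3.90 and Wfdc3 from 3.12 to 4.24 on the log2 scale over the other ways of fitting, and from 3.53 to 4.07 and 3.72 to 4.36 as each library was left out. Serpina3n was past the threshold in 13 of 13 fits that left out 1 library and in 7 of 8 others, and Serpine2 in 13 of 13 and 7 of 9, with adjusted p = 0.0844 by limma on log2 CPM plus 1. Wfdc2 was past it in 5 of 13 and 7 of 9. Scaling by library size alone or testing log2 CPM plus 1 moved the share of called genes that were higher from 52.3% to 42.7% and 37.8%, and the median of all log2 fold changes from -0.03 to -0.10 and -0.16.

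Deviations from the group mean correlated at -0.33 to 0.27 between same-numbered libraries of the groups. These correlations were not compared with those of different-numbered libraries, so they do not settle whether the replicate number pairs libraries. With the replicate number as a block, edgeR called 1344 genes in place of 2819 and 3 other inhibitors in place of 5. It called 0 of the 8 members in place of 3 (3 at an unadjusted p under 0.05). Adjusted p was then 0.0607 for Serpina3n, 0.0973 for Serpine2 and 0.0987 for Wfdc2.

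Counts of other inhibitors called moved to 10 with DESeq2, to 11 with no filter, to 1 with at least 10 counts in every library and to 3 with the letter range as a term. Serine proteases called moved from 5 to 8 with no filter and to 3 with at least 10 counts. With no filter more genes were tested, and with the stricter filter fewer. With each library left out, the count of all genes called ran from 2305 to 3633, the highest without hyperoxia 1, members from 2 to 3, other inhibitors from 3 to 8, the highest again without hyperoxia 1, and proteases from 4 to 5.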
